A study of Rattus norvegicus with 5 samples.

Results

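Insulin acts on liver cells within minutes, and the interval studied here is the one between 15 and 30 min of 10 nM insulin in Fao cells. These come from a rat hepatoma and remain differentiated, with many hepatocyte functions kept. The step sets 1 array of cells given insulin for 30 min against 1 array of cells given insulin for 15 min, 2 of the 5 samples of the series. Members were taken by time from the sample labels, and each gene was compared where its probe was well above background on both arrays, which held for 17042 genes or transcripts of 35630 named on the array. All 5 groups (0, 15, 30, 45 and 60 min) shared the same preparation: cells of 1 line, seeded in 6 cm dishes, were grown for 2 days with 10% fetal bovine serum. Serum was then withdrawn for 16 h, in the presence of the glucocorticoid dexamethasone at 10 nM. The line carries no genetic change made for the study as far as the labels say, and it is a tumour line kept without the other cells of the liver. Cells kept for 15 or 30 min without insulin were not analysed here, so the values describe the step in time and not insulin apart from it.

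Insulin binds a receptor tyrosine kinase that feeds the PI3K-Akt branch, which keeps FoxO factors out of the nucleus and lowers glucose output in liver, and the Ras-ERK branch. Kinases of the second branch switch on immediate early genes, which need no new protein for their transcription: serum response factor and its ETS partners at CArG boxes, CREB and ATF factors, and AP-1 act on their promoters. Many products of these genes are themselves transcription factors, while others, such as the phosphatases of ERK and the inhibitors of NF-kB, turn the signal off again.

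Each array gave 1 value per gene, so the step has no replicate, no p-value and no test, and precision is limited by having 1 array on each side. In bulk RNA, fewer cells and less RNA per cell cannot be told apart. The software placed 22341 of the 43379 spots that are not controls well above background at 15 min and 22069 at 30 min, and marked no spot as saturated. Both arrays lay on slide 1, side by side, and were scanned together, so position on the slide and time cannot be told apart. Levels are given on a log2 scale on which 0 is the 75th percentile of the array's processed signals, and a difference is the level at 30 min minus that at 15 min. The scanner software's own error of such a difference was 0.20 for a gene read by 1 spot, and for 134 probes spotted repeatedly (8 or more usable spots) the differences of spots at the same position had a median SD of 0.10. These errors cover the spots of an array and leave out culture, labelling and hybridisation. Over all genes the difference had a median of -0.01 and an SD of 0.20, and 8 labelled control transcripts differed by -0.11 to 0.02. Fao cells kept their hepatocyte markers on both arrays: 19 of 20 were well above background, and their summed log2 level was 10.66 and 10.72. Of 17 markers of other liver cell types, 6 at 15 min and 5 at 30 min were above background, with a summed log2 level of 1.25 and 1.17. Those above background on both were Col1a1 (levels of 0.77 and 0.74), the macrophage marker Cd68 (-2.91 and -3.02), the Kupffer-cell lectin Clec4f (-2.63 and -3.98), and Krt19 (-2.31 and -2.11) and Sox9 (-2.56 and -2.70) of bile duct cells. A further 11, among them Adgre1, Pecam1, Stab2, Lyve1, Dcn and Cd3e, were above background on neither, and Kdr at 15 min only.

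Among brighter genes the 2-fold differences of this step were all upward, with Atf3 in the lead. In all, 45 genes or transcripts (0.264%) were at least 2-fold higher at 30 min than at 15 min, 29 of them with a gene symbol, and 24 (0.141%) were at least 2-fold lower, 4 of them with a symbol. At 1.5-fold, 139 (0.816%) were higher and 148 (0.868%) lower. The balance depended on signal. Among the 8521 brighter genes, 23 (0.27%) were 2-fold higher and 0 (0%) were 2-fold lower, and 51 (0.599%) against 5 (0.0587%) passed 1.5-fold. Among the dimmest 4261 genes the order was turned, with 65 higher and 106 lower at 1.5-fold. Under normexp background correction as first planned, which lifted dim signals on the 15 min array, 42 of 136 named genes changed sign. With normexp refitted without the 20 lowest spots, 25 genes remained 2-fold higher and 0 lower. In a separate setting without normexp, keeping dim probes made the counts 246 and 193. The steps on either side, which share an array with this one, held 19 genes 2-fold higher (0.11%) and 48 lower (0.278%) from 0 to 15 min, and 22 higher (0.129%) and 24 lower (0.141%) from 30 to 45 min.

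**Figure D1:**
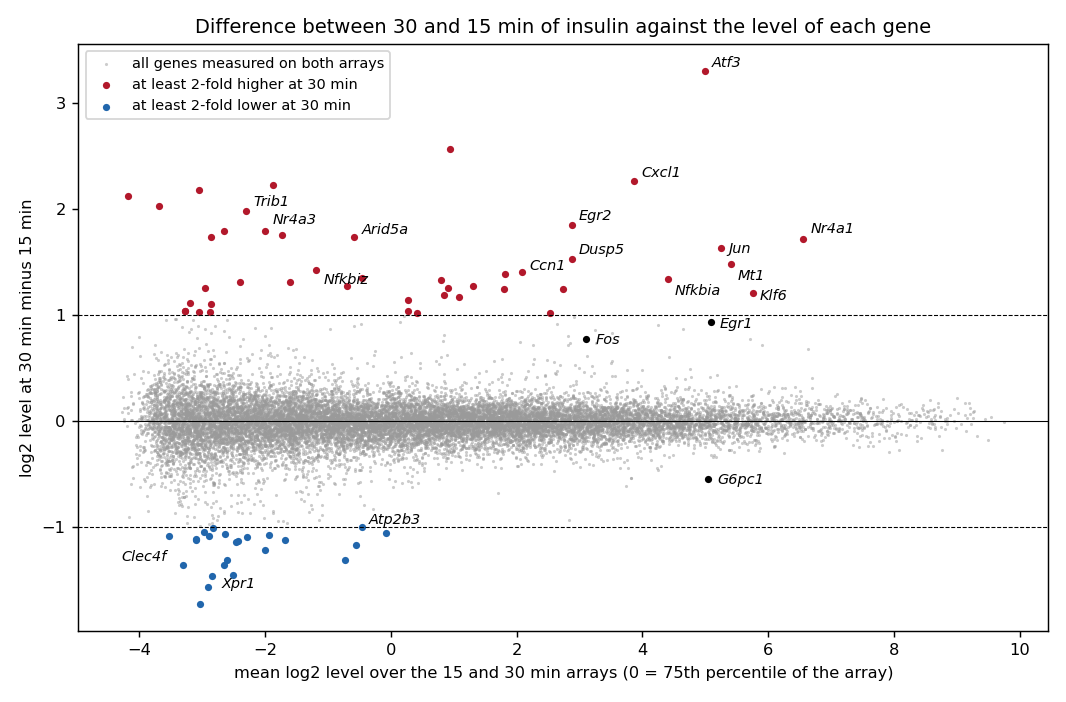
Each dot is 1 of 17042 genes, with its mean log2 level over the 15 and 30 min arrays on the x axis (0 is the 75th percentile of an array) and its log2 level at 30 min minus 15 min on the y axis; the dashed lines mark 2-fold. The 45 red dots lie at all levels, up to Atf3 at 3.30, while the 24 blue dots lie in the lower part of the range. Black dots mark Egr1, Fos and G6pc1, which did not reach 2-fold.

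**Figure D2:**
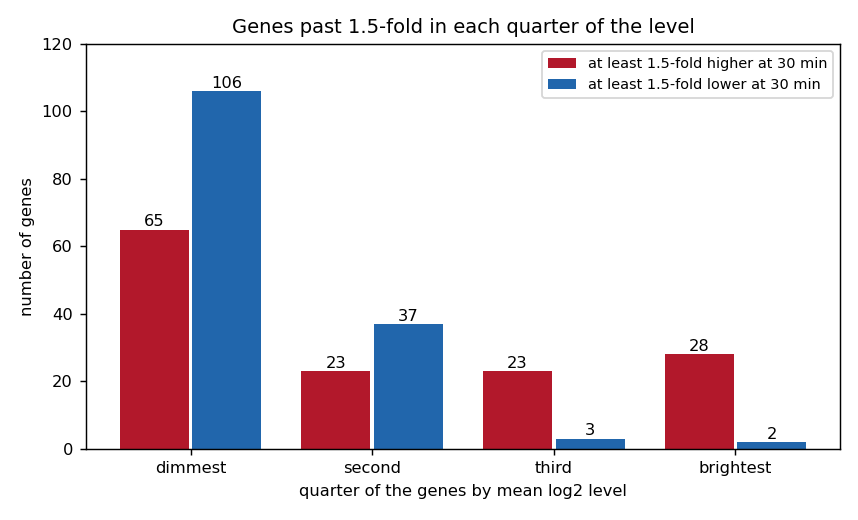
Bars count the genes at least 1.5-fold higher (red) or lower (blue) at 30 min than at 15 min, with the genes split into 4 groups of 4260 or 4261 by mean log2 level. Higher genes numbered 65, 23, 23 and 28 from the dimmest to the brightest group, and lower genes 106, 37, 3 and 2.

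The largest difference of any gene was that of Atf3, a stress-responsive bZIP factor of the ATF/CREB family that pairs with Jun. In order of time, from 0 to 60 min, its log2 level was 4.76, 3.34, 6.64, 6.47 and 5.92. It was 9.87-fold higher after 30 than after 15 min, a difference of 3.30 with a software error of 0.20. The 15 min array held the lowest of the 5 values, below the 0 min array too, and the 3 later arrays lay close together above it. Its probe lies at chr13:107191691-107191749 on the rn4 assembly of the array design, and exons were not assigned. Jun, the core subunit of AP-1, was read by 10 spots and stood at 4.08, 4.44, 6.07, 5.36 and 4.60. That is 3.1-fold higher at 30 min than at 15 min, with a software error of 0.07 for a log2 difference of 1.63. Jun was highest at 30 min and came down over the next 2 arrays, and it was the only probe with at least 8 usable spots whose mean differed by 2-fold.

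The other AP-1 genes differed less, in the same direction. Junb, a Jun relative, had log2 levels of 1.89, 2.18, 3.09, 2.03 and 1.25, with 30 min 1.88-fold above 15 min. Fos, the usual partner of Jun, had 1.78, 2.72, 3.49, 0.77 and -0.57, so its step from 15 to 30 min (1.71-fold) followed an earlier one and was gone by 45 min. Both were highest on the 30 min array, and neither reached 2-fold in this step. The log2 differences were 0.45 for Fosb and 0.23 for Fosl2, both Fos relatives, 0.31 for Jund, and 0.64 and 0.25 for the small Maf factors Maff and Mafk. Jdp2, a repressor that pairs with Jun, differed by 0.10. All 10 AP-1 genes measured on both arrays, of 12 on the array, therefore lay above 0. At least 1.5-fold higher were 5 of them and 2-fold higher 2, against 0.816% and 0.264% of all genes. Their median was 0.54 against -0.01 over all genes. Under normexp as planned Fosb, Fosl2, Maff, Mafk and Jdp2 lay below 0. The other members, Batf3 and Fosl1, were above background on neither array.

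Egr2 led the EGR zinc-finger factors, which bind GC-rich sites and are early targets of serum response factor. Its log2 level was 1.34, 1.95, 3.80, 2.74 and 0.10, which makes 30 min 3.59-fold higher than 15 min (difference 1.85). Egr2 was 1 of only 2 among the 45 genes whose 0 min level lay at least 0.5 below that of 15 min, and on the 60 min array, on another slide, it was below both. Egr1, read by 9 spots, stood at 4.58, 4.62, 5.55, 4.52 and 2.58 and was 1.90-fold higher after 30 than after 15 min, with a software error of 0.07 for the difference of 0.93. Egr1 was thus level between 0 and 15 min, highest at 30 min and back by 45 min. Nab1 and Nab2, the corepressors that hold EGR factors in check, differed by 0.32 and 0.27. Egr3 was well above background at 30 min and not at 15 min, and was at least 2.86-fold higher by that bound. The 4 members measured on both arrays had a median of 0.63, and Nab1 and Nab2 changed sign under normexp as planned.

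CArG boxes, the binding motif of serum response factor, were looked for in the 250 bases before the start of each gene in a RefSeq promoter table (GRCr8), on both strands. The table held 23 of the 29 named genes that were 2-fold higher. Atf3, Trib1, Nr4a3, Jun, Rnd1 and Csrnp1 were not among them. CArG matches stood in 3 of the 23, in Egr2, Dusp5 and Klf6, against 1.5% of all 27457 promoters and 1.26% of the 7712 promoters of genes measured here. These 3 sequences are shown because their genes were higher together, with capitals for every motif match. They lie at chr20:21054442-21054691 (minus strand) for Egr2, chr1:262543524-262543773 (plus strand) for Dusp5 and chr17:69458479-69458728 (minus strand) for Klf6, each 5′ to 3′ and ending at the base before the start.
Egr2: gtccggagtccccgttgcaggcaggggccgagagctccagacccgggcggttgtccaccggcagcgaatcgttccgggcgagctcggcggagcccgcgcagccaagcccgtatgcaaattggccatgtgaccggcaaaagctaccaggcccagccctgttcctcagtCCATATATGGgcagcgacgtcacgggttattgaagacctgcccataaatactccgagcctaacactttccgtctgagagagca
Dusp5: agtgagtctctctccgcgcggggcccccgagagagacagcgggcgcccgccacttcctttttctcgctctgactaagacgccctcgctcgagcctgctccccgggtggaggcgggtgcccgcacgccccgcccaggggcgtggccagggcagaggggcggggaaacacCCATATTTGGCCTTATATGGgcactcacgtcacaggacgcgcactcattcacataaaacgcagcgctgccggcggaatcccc
Klf6: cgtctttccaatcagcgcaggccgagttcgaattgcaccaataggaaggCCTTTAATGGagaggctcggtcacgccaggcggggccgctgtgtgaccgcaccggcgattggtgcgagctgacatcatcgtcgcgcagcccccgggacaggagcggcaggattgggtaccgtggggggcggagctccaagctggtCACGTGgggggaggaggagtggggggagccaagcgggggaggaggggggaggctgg
The match lay 83 to 74 bases before the start in Egr2, and Dusp5 held a pair side by side, from 82 to 73 and from 72 to 63 bases. In Klf6 it lay further out, 201 to 192 bases before the start, and the other capitals are an E-box (CACGTG) at 56 to 51. Of the other motifs, the 23 held the CRE (TGACGTCA) in Zfp426, AP-1 (TGAGTCA) in Cxcl10, EGR sites (GCGGGGGCG or GCGTGGGCG) in Arid5a, Nr4a1 and Zfp426, and the FoxO site (TGTTTAC) in 0. Over all promoters, the CRE stood in 1.7%, AP-1 in 3.98%, EGR sites in 2.94%, FoxO sites in 3.25% and the E-box in 5.79%. Over the promoters of measured genes these shares were 3.05%, 3.1%, 5.34%, 2.13% and 8.8%. A match is a string of letters and was not tested for binding. In the list of serum response factor and actin targets, 8 genes were measured on both arrays, with a median of 0.15. Of these, 6 lay above 0 and 2 below. The number past 1.5-fold was 0 in either direction, against 0.816% higher and 0.868% lower over all genes.

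Dusp5 (probe at chr1:259767436-259767495 on rn4), a nuclear phosphatase of ERK, and Klf6, a Kruppel-like zinc-finger factor, stood apart in value from most of their families. Dusp5 had log2 levels of 2.53, 2.11, 3.64, 2.98 and 3.01, and was 2.88-fold higher after 30 than after 15 min. The ERK brake list holds MAP kinase phosphatases, not all of them particular to ERK, and Sprouty and Spred genes. Among its 7 measured members Dusp5 was the only one past 1.5-fold upward (0.816% of all genes), and the list median was -0.03. Dusp1, a phosphatase of several MAP kinases, had 3.24, 4.08, 3.54, 2.55 and 2.31 and was the lowest of the 7 in this step, with a difference of -0.54 (0.02 under normexp as planned and -0.60 refitted). Dusp1 was highest at 15 min and lower on each of the 3 later arrays in turn. Spry1, an inhibitor of receptor tyrosine kinase signalling, differed by 0.37, and Dusp8, Dusp14, Dusp16 and Spred1 by -0.18 to -0.03. Dusp6, the cytoplasmic phosphatase of ERK, was not marked well above background at 15 min despite a level of 3.92 there. Its level at 30 min was 4.99, and its value of 2.10-fold higher is the ratio of these signals as read.

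Klf6 stood at 5.58, 5.15, 6.36, 6.01 and 5.21, so that 30 min was 2.31-fold above 15 min, and it was the only one of 8 Kruppel-like factors to reach 1.5-fold. Klf5 differed by 0.56, whereas Klf10, a TGF-beta-inducible member, had a log2 level of 3.99 at 15 min and 3.55 at 30 min. The median of the 8 was -0.08 against -0.01 over all genes, with 6 of them below 0.

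The NR4A receptors, orphan nuclear receptors that work without a known ligand and raise gluconeogenic genes in liver, were split. Nr4a1 had log2 levels of 6.78, 5.69, 7.41, 7.38 and 7.20 and was 3.29-fold higher after 30 than after 15 min. Nr4a3 had -2.32, -2.89, -1.10, 0.01 and -0.10, which makes it 3.46-fold higher at 30 min and still higher at 45 min. Both lay lowest on the 15 min array, and neither came back to its 15 min level by 60 min. Nr4a2 differed by 0.26, with levels between -1.17 and -0.83 on the 5 arrays. Under normexp as planned, the difference of Nr4a3 was -0.01, and refitted it was 1.0. Nr4a1 differed by 2.34 and 1.68 in these fits.

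Of 23 other immediate early genes measured on both arrays, 19 lay above 0, 8 were at least 1.5-fold higher and 5 at least 2-fold higher, and none was 1.5-fold lower. The list median was 0.48 against -0.01 over all genes, of which 0.816% were 1.5-fold and 0.264% 2-fold higher. Trib1, a pseudokinase that steers C/EBP alpha to degradation, had log2 levels of -1.64, -3.29, -1.31, -0.83 and -1.24, 3.94-fold higher at 30 min than at 15 min. Its 15 min level lay 1.65 below that of 0 min, so most of the step of 1.98 led back to the 0 min level. Trib1 is dim, and its difference was -0.06 under normexp as planned and 0.99 when refitted. Ccn1 (also Cyr61), a secreted matrix protein that YAP and serum response factor control, had 1.47, 1.39, 2.80, 1.68 and 1.08, a single high value at 30 min and 2.65-fold above 15 min. Csrnp1, a nuclear protein, had -0.47, -1.14, 0.21, 0.18 and 0.40 and held its 30 min level later (2.54-fold). Nfil3, a bZIP repressor that also serves the clock, had 3.34, 2.02, 3.04, 3.46 and 3.03. After its step of 2.03-fold it still lay below the 0 min level. Rhob, a small GTPase of endosomes and actin, was 2.25-fold higher. Below 2-fold came Vgf (0.84), Tiparp (0.81, but -0.16 from its other, dim probe), Ier3 (0.73), Srf (0.56) and Myc, the growth-promoting factor, at 0.37 with a software error of 0.06 over 10 spots.

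Plk3, Rnd1 and Arid5a were also 2-fold higher, the last 2 outside any list. Plk3, a Polo-like stress kinase, had log2 levels of 0.67, 0.13, 1.46, 1.61 and 1.84, and was 2.52-fold higher after 30 than after 15 min. Gadd45a and Gadd45g, stress proteins that bind PCNA and kinases of the p38 and JNK pathways, were 1.78-fold and 1.71-fold higher. Of 12 genes in the list of Gadd45, p53 and Polo kinases, 1 was 2-fold higher and 3 were 1.5-fold higher. Over all genes these shares were 0.264% and 0.816%, and the list median was 0.26. Rnd1 had 1.55, 1.11, 2.50, 3.61 and 3.59, a climb that went on at 45 min after the 2.61-fold step. Arid5a, which binds and protects cytokine mRNAs, had -0.41, -1.44, 0.29, 0.94 and 0.92 (3.32-fold), likewise highest at 45 min. Just below 2-fold lay Socs3, the brake on STAT3 signalling, at 1.86-fold, and the mRNA-decay factors Btg2 at 1.83-fold and Zfp36 at 1.82-fold. Socs3 was the only 1 of 13 SOCS and STAT genes past 1.5-fold upward (list median 0.03). In the mRNA decay list 2 of 9 were (median 0.15). Under normexp as planned and refitted, the log2 differences were 0.29 and 0.61 for Socs3, 0.10 and 0.57 for Zfp36, and 1.51 and 0.89 for Btg2.

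Of the list of NF-kB subunits and inhibitors, Nfkbia and Nfkbiz were 2-fold higher at 30 min, and of the chemokine list Cxcl1 and Cxcl10. Nfkbia, the inhibitor IkB alpha that NF-kB itself induces, had log2 levels of 4.06, 3.73, 5.07, 5.27 and 4.32, with 30 min 2.54-fold above 15 min. Nfkbiz, a nuclear IkB protein that helps NF-kB at some promoters, had -1.57, -1.90, -0.48, -0.53 and -1.71 (2.69-fold). The difference of Nfkbiz was 0.29 under normexp as planned and 0.96 refitted, against 1.88 and 1.28 for Nfkbia. By these probes Nfkbia and Nfkbiz held their level at 45 min and were lower again at 60 min. The other, dimmer probe of Nfkbia had -1.33, -0.78, -0.29, -1.15 and -2.54, and so lay below its 15 min level at 45 min. Nfkbie differed by 0.62 and Nfkbib by 0.21. Among the subunits, Rela differed by 0.27, Rel by 0.32, Nfkb2 by 0.08 and Nfkb1, read by 10 spots, by -0.06. Bcl3, another nuclear IkB protein, differed by 0.10, and Birc3, an NF-kB target, by 0.31. Thus 9 of 10 measured genes of the list lay above 0, 3 of them by 1.5-fold and 2 by 2-fold. The median was 0.29 against -0.01 over all genes, of which 0.816% were 1.5-fold and 0.264% 2-fold higher. Nfkb2 and Bcl3 lay within the software error of 0.20, and the other probe of Nfkb2 gave -0.11. Under normexp as planned Nfkbie, Rel and Birc3 lay below 0 (-0.50, -1.03 and -0.15) and Nfkb1 above it (0.34).

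Cxcl1, a chemokine that draws neutrophils, had the largest difference among named genes after Atf3. Its log2 level was 4.18, 2.73, 4.99, 4.35 and 3.08, so it was 4.80-fold higher after 30 than after 15 min (difference 2.26). The 15 min value was again the lowest, the 0 min value lay between, and the level came down after 30 min. Cxcl10, a chemokine of T cells that interferon and NF-kB induce, had -1.90, -2.25, -0.95, -0.44 and 0.05 (2.47-fold), and went on climbing. The difference of Cxcl10 was 0.01 under normexp as planned and 0.79 refitted, against 2.72 and 2.18 for Cxcl1. Icam1, an adhesion molecule read by 10 spots, was 1.64-fold higher with a software error of 0.06. Csf1, Cxcl11, Cx3cl1 and Lif differed by -0.02 to 0.16, and the median of the 7 was 0.16. Cxcl2 was above background at 30 min only, at least 3.75-fold higher. Lcn2, an iron-binding acute-phase protein, was 2.06-fold higher, with levels of 0.31, -0.25, 0.79, 1.47 and 1.83. Map3k8, the kinase that links NF-kB and ERK signalling, was 2.17-fold higher at a low level.

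Kappa B sites, the binding motif of NF-kB, were found in 6 of the 23 promoters of 2-fold higher genes: Cxcl1, Nr4a1, Nfkbiz, Nfkbia, Cxcl10 and Lcn2. They stood in 3.52% of all promoters and in 4.01% of those of measured genes. The promoters of the chemokine and of the inhibitor are shown, for the match near the start of each. Cxcl1 lies at chr14:17479322-17479571 and Nfkbia at chr6:78597073-78597322, both on the minus strand of GRCr8, and capitals again mark every match.
Cxcl1: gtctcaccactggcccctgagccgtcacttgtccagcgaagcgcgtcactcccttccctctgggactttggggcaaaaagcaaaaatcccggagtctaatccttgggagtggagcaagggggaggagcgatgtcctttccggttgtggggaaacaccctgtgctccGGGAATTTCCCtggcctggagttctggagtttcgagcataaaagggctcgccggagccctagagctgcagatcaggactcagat
Nfkbia: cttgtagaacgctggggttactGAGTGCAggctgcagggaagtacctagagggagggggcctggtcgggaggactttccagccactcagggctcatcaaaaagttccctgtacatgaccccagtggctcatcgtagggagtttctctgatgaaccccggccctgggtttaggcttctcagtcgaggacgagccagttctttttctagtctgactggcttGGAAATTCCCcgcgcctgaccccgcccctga
The capitals in Cxcl1 cover 2 overlapping kappa B matches, from 84 to 75 and from 83 to 74 bases before the start. In Nfkbia the site lay 31 to 22 bases before the start, and the capitals 228 to 222 bases before it are a metal response element. In the 23 promoters no match of one motif overlapped that of another. The level of the subunits is not a measure of NF-kB activity, which was not tested.

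Among the higher genes were 2 that handle zinc, which form no list here. Mt1, the metallothionein that binds zinc and that glucocorticoids and zinc induce, had log2 levels of 5.50, 4.66, 6.14, 7.04 and 6.90, and was 2.79-fold higher after 30 than after 15 min. Slc30a1, the zinc exporter of the plasma membrane, had -1.01, -1.33, -0.06, 1.34 and 1.85 (2.42-fold). Both were lowest at 15 min and went on climbing to 45 min. ENSRNOT00000047663, described on the array as metallothionein-2, had 4.22, 3.80, 4.71, 5.78 and 6.4 (1.87-fold), and whether the probes of these close relatives bind each other's transcripts was not tested. In the glucocorticoid-induced list, which holds Mt1 and Lcn2, the median of 13 genes was 0.11, with a range of -0.56 to 1.48. Of the 13, 3 were at least 1.5-fold higher, 2 of them 2-fold, and 0 were 1.5-fold lower. Over all genes these shares were 0.816%, 0.264% and 0.868%, and the median was -0.01. Dusp1 lay at -0.54, Fkbp5 at -0.06, Tat at 0.20, Per1 at 0.35 and Errfi1 at 0.68. Metal response elements (TGCACNC or TGCGCNC), a motif added once these 2 genes had been seen, stood in 6 of the 23 promoters, in 21.2% of all promoters and in 30.8% of those of measured genes. Mt1 alone held 6 of them, between 176 and 49 bases before the start, in the sequence from chr19:10832976-10833225 (minus strand), and Slc30a1 held 2.
Mt1: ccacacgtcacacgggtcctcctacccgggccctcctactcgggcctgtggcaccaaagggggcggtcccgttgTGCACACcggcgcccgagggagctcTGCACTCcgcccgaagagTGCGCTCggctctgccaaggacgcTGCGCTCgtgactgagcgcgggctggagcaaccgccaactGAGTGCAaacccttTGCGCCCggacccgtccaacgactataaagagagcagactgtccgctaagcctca

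The other named genes that were 2-fold higher belong to none of the lists and were named after their values were seen. Adcyap1, the neuropeptide PACAP, was 2.28-fold higher, with log2 levels of 0.90, 0.25, 1.44, 0.04 and 0.96. Rbm48, Zfp426, Klrb1a and Peak1 were dim, with levels of -3.57 to -3.05 at 15 min, and were 2.03-fold to 2.48-fold higher. Dnaaf2 was 2.03-fold higher. At the edge of the 2-fold rule, Dnaaf2 and Nfil3 lay just inside at 1.02, and Sat1 and Galr3 just outside at 0.98 and 0.95. Transcripts without a symbol made up 16 of the 45. The largest, TC586229, had log2 levels of 1.79, -0.33, 2.23, 2.73 and 2.28 (5.90-fold), and CO568196 had -2.04, -2.98, -0.75, 1.10 and 1.85 (4.69-fold). ENSRNOT00000014348, described on the array as a fragment of nocturnin, a clock-controlled deadenylase-like protein, was 2.42-fold higher. AI101331 and AA849985 were high at 30 min only, with levels of -1.96 and -1.99 there and of -3.73 or lower on the other 4 arrays.

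**Figure D3:**
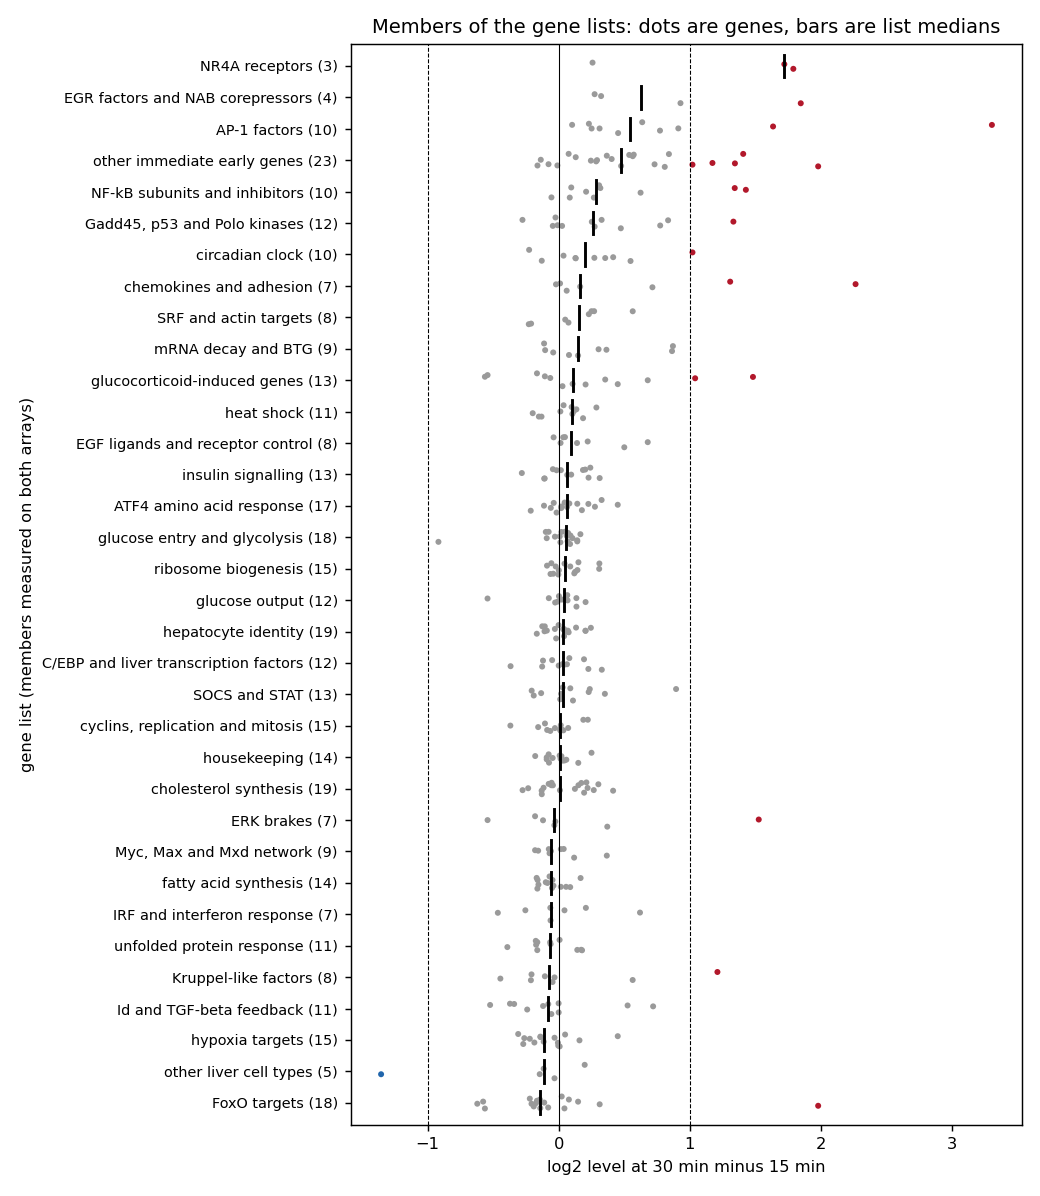
Each dot is a gene of 1 of 34 lists, placed at its log2 level at 30 min minus 15 min (x axis), with black bars for list medians, red dots for genes at least 2-fold higher and blue for 2-fold lower; numbers in brackets count the members measured on both arrays. NR4A receptors (1.72), EGR factors (0.63), AP-1 factors (0.54) and other immediate early genes (0.48) have the highest medians, and FoxO targets (-0.14) the lowest.

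No gene of the glucose output list reached 1.5-fold, and G6pc1 had the largest difference of its 12 measured members. G6pc1, the phosphatase that releases glucose from hepatocytes, had log2 levels of 5.33, 5.32, 4.78, 4.58 and 3.40. It was level between 0 and 15 min and stood 0.54 lower at 30 min (difference -0.54, software error 0.20), and its other probe gave -0.34. Under normexp as planned the difference was 0.20, and refitted it was -0.46. Pck1, the other main control point of gluconeogenesis, had 6.39, 6.21, 6.28, 6.40 and 6.55, and the list had a median of 0.04. Of 18 FoxO targets, 12 lay below 0 and the median was -0.14 (0.14 under normexp as planned). Over all genes the median was -0.01, so genes at large also lay more often below 0 than above it. The lowest were Ccng2, an unconventional cyclin, at -0.62, the stress protein Sesn1 at -0.58 and Angptl4, an inhibitor of lipoprotein lipase, at -0.56. Ccng2 kept going down, from -1.05 at 15 min to -1.67, -2.03 and -2.63 on the later arrays. Igfbp1 and Irs2, the best-known FoxO targets in liver, differed by -0.14 and -0.11, within the software error. Trib1, a member of the list as well, was the only FoxO target past 1.5-fold upward, and Ccng2 the only one past it downward. Over all genes 0.816% passed 1.5-fold upward and 0.868% downward.

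The lists of cholesterol synthesis (19 genes, median 0.01), fatty acid synthesis (14, -0.06), glucose entry and glycolysis (18, 0.05), ribosome biogenesis (15, 0.04), the unfolded protein response (11, -0.07), the ATF4 response (17, 0.06) and the cell cycle (15, 0.01) had no gene 1.5-fold higher. Pfkfb3, a kinase whose product switches on phosphofructokinase, was their only member 1.5-fold lower, at -0.92 and a dim level of -2.37 at 15 min. Srebf1, the lipogenic factor that insulin induces over hours, differed by -0.10 and Insr, the insulin receptor, by 0.31 at a dim level. Hepatocyte identity genes had a median of 0.04 over 19, and housekeeping genes 0.01 over 14, with Actb at 0.25 and Gapdh at -0.09. Hypoxia targets lay at -0.11 over 15, with 11 of them below 0, and clock genes at 0.20 over 10, led by Nfil3, Bhlhe40 (0.55) and Per2 (0.42). The median over all genes was -0.01.

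Genes that were lower at 30 min were mostly dim and unnamed. Of the 24, 16 carry only the number of an expressed-sequence cluster (TC), against 1 of the 45 higher genes and 7.9% of all genes measured. The 4 with a symbol were Xpr1, a phosphate exporter, at -1.46, the receptor Notch2 at -1.46, the Kupffer-cell lectin Clec4f at -1.35 and Atp2b3, a plasma membrane calcium pump, at -1.0. Xpr1 had log2 levels of -3.72, -2.11, -3.57, -3.41 and -4.13, and Notch2 had -3.62, -1.79, -3.25, -3.41 and -4.09. Clec4f had -3.92, -2.63, -3.98, -4.15 and -4.37. In these genes and in Atp2b3 the 15 min array held the highest of the 5 values, and the 30 min level lay nearer to that of 0 min than to that of 15 min. Under refitted normexp Xpr1 differed by -0.55 and Atp2b3 by -0.73. No one of the 24 genes had another probe on both arrays. Just short of 2-fold lay Zp3 at -0.97, a coat protein of the egg, and Cbfa2t3 at -0.93, a transcriptional corepressor. The 5 brighter genes that were 1.5-fold lower comprised TC585453, at -0.93 with log2 levels of 2.81, 3.30, 2.37, 1.84 and 1.44, BF407981 and TC592717. The other two were Hspa4, a chaperone of the Hsp110 family (-0.61, and -0.06 from its other probe), and Saa4, an apolipoprotein of the acute-phase family (-0.68).

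Genes seen on only 1 of the 2 arrays have a bound in place of a difference. There were 537 above background at 30 min only, 143 of them at least 2-fold higher by the bound, and 762 at 15 min only, 156 of them at least 2-fold lower. The largest upward bounds with a symbol were Pstpip1 (at least 8.02-fold), Slc6a15 (5.94), Mdga2 (5.91), Ccdc89 (5.77) and Mycn (5.46). The largest downward ones were Prkg1 (at least 12.5-fold), Or1ad6 (7.10), Zfpm2 (6.75), Tnnt2 (6.08) and Adam23 (5.36). Each of these 10 genes was above background on that 1 array and on none of the other 4.

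Other probes of a gene mostly gave the same direction. Of the 45 higher genes, 9 had one on both arrays, all 9 gave the same direction and 8 passed 2-fold again. Trib1 gave 1.98 and 2.31 with its probes, Nr4a3 1.79 and 1.46, Plk3 1.33 and 1.41, Klf6 1.21 and 1.43, Rnd1 1.39 and 1.49, Mt1 1.48 and 1.25, and Ccn1 1.41 and 1.16. Nfkbia was the exception, with 1.34 from the brightest probe and 0.49 from the other. Of 139 genes 1.5-fold higher, 13 had another probe, and in 9 of these all other probes passed 1.5-fold too. In 12 of the 13 the direction was the same, and in Tiparp the other probe gave -0.16. Of 148 genes 1.5-fold lower, 6 had another probe, 5 of these gave the same direction and 0 passed 1.5-fold. Probes of a gene read the same RNA, so they repeat the measurement and not the experiment.

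**Figure D4:**
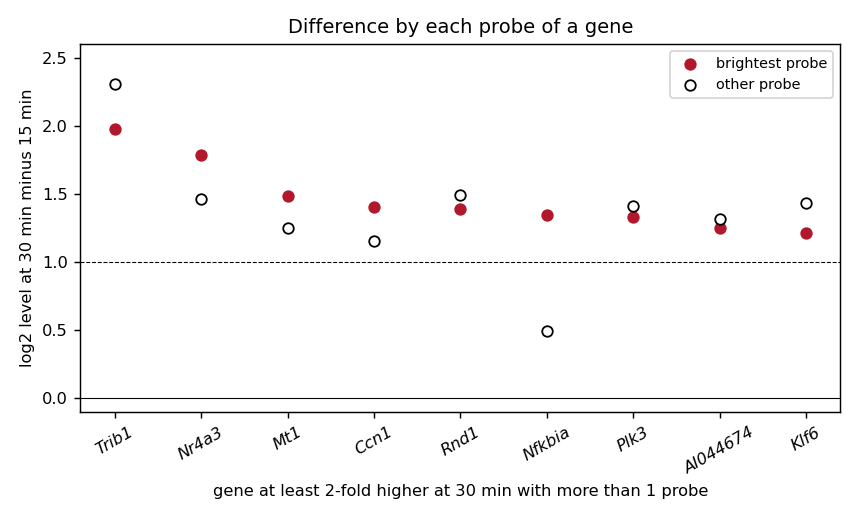
For the 9 genes at least 2-fold higher at 30 min that had more than 1 probe on both arrays, filled dots give the log2 difference of the brightest probe and open dots that of the other. All lie above 0, and all but the other probe of Nfkbia (0.49) lie above the dashed 2-fold line.

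After 30 min the higher genes took different courses. Among the arrays of 15 to 60 min, 23 of the 45 were highest at 30 min, 13 at 45 min and 9 at 60 min, the last on another slide. Against 15 min, 28 of them were still 2-fold higher at 45 min and 20 at 60 min. By their brightest probes, Egr2, Jun, Ccn1, Cxcl1, Klf6 and Dusp5 peaked at 30 min. By the same rule Nr4a3, Arid5a, Mt1 and Rnd1 stood highest at 45 min and Slc30a1, Cxcl10, Lcn2 and Plk3 at 60 min. The other probes of Nr4a3 and Rnd1 were highest at 60 min, and that of Plk3 at 45 min. As the genes were chosen for a high 30 min value, a lower value later is partly set by that choice. The same holds for a low 15 min value: that array was the lowest of all 5 for 31 of the 45. In 22 of the 45 the 0 min level lay at least 0.5 above that of 15 min, in 11 by 2-fold or more. Set against 0 min, the 30 min level was higher in 44 of the 45, which the choice also favours, and 2-fold higher in 17. Of the 24 lower genes, 17 were higher at 15 min than at 0 min by at least 0.5. How much of the step belongs to the 15 min array alone was not tested.

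**Figure D5:**
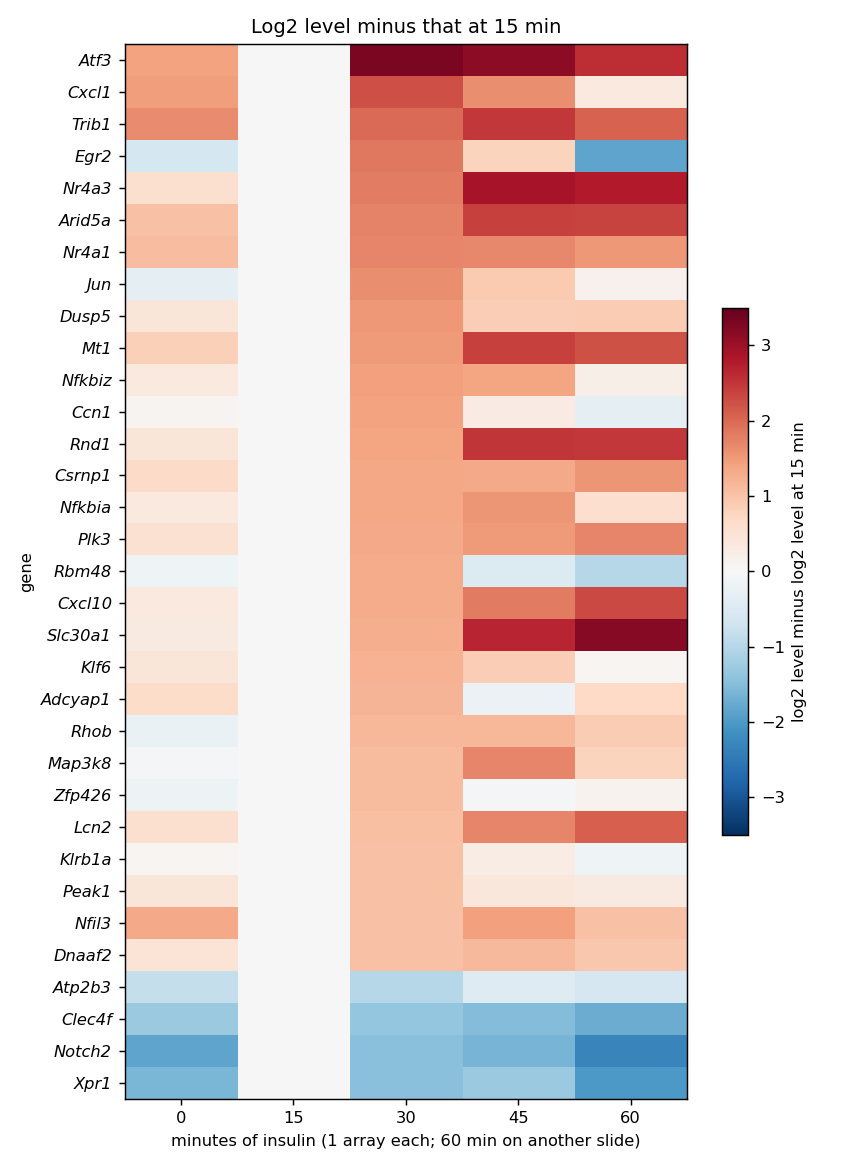
Colours give the log2 level of each gene minus its own level at 15 min (white), for the 29 named genes at least 2-fold higher and the 4 at least 2-fold lower at 30 min (rows) on the 5 arrays (columns, minutes of insulin). At 0 min Atf3 (1.42 above its 15 min level), Trib1 (1.65), Cxcl1 (1.45) and Nfil3 (1.32) are also red, whereas Egr2 (-0.61), Jun (-0.35) and Rhob (-0.22) are blue.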

How the data were processed

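Total RNA (700 ng) from 5 samples was amplified and labelled with Cy3 for Agilent 1-colour rat arrays, per the labels' protocols. Per the file headers, which give array design 014879, the deposited intensity values come from Agilent Feature Extraction (9.5.3.1), whose background subtraction adds error to dim signals. The authors' deposited series matrix holds log2 values made by a step not given in the sources used here, with a median of 0 in each column; its differences followed those of the scanner values (r 1 across 19746 probes). The deposited outlier and background flags were used as set.

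Control and outlier spots (122 to 126 non-control spots on these 2 arrays) were left out, spots of a probe averaged, and log2 taken of the processed signal over the array's 75th percentile (266 at 15 min, 253.6 at 30 min). A gene was its brightest probe above background on both arrays. Probes were named through RefSeq (GRCr8), and 20421 of 41012 kept the name in the files. Coordinates of probes are on rn4. For a bound, the dim array took the lowest signal called well above background, or the gene's own where that was higher.

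Members, 34 gene lists (460 of 483 genes on the array, 370 on both arrays) and the naming rule were chosen with earlier results of these data known. The rule named the 15 largest differences each way with a symbol, the 3 largest of each list, all EGR, AP-1, NR4A, ERK brake and NF-kB members, the 5 largest bounds each way, and 12 genes whatever their value (Actb, Gapdh, Insr, Srebf1, Irs2, Igfbp1, G6pc1, Pck1, Myc, Jun, Fos, Egr1). Slc30a1, Rhob, Map3k8, Hspa4, Saa4, Sat1, Galr3, other 2-fold higher genes outside the rule, genes of lists beyond those 3, and transcripts without a symbol were named after their values were seen. Each time had 1 array, so differences were described and not tested. Alternatives were 2 background corrections, other scalings, filters, probe rules, outlier spots and the series matrix. Promoters were read from RefSeq (GRCr8), and the metal response element was added after values were seen. Counting was tested on simulated data. Python 3.11.15, numpy 2.4.6, pandas 2.3.3, R 4.3.3 and limma 3.58.1 (normexp) were used.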

Additional observations from a re-analysis of the deposited data

How the results depend on the processing

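No paired analysis was possible because each time had 1 array. Quantile scaling, median centring, a 75th percentile over measured probes, genes above background on all 5 arrays, outlier spots kept and the series matrix (16707 genes) gave 43 to 45 genes 2-fold higher and 22 to 24 lower, and moved no list median by more than 0.0989, the spot SD. Without a filter on dim probes, 246 were higher and 193 lower at 2-fold and 636 and 577 at 1.5-fold, with medians of 0.40 for AP-1 factors, 0.35 for other immediate early genes and 0.35 for chemokines. The brighter 8521 genes gave 23 and 0 at 2-fold, 51 and 5 at 1.5-fold, 0.91 for AP-1 factors and 0.15 for the NF-kB list. Averaging the probes of a gene gave 1.62 for NR4A receptors and 0.37 for other immediate early genes. Normexp as planned gave 1707 lower at 2-fold and 2471 higher and 4814 lower at 1.5-fold, while its 52 genes 2-fold higher held 20 of the 45. Its medians were 0.42 for EGR factors, 0.43 for AP-1, -0.01 for NR4A, 0.86 for other immediate early genes, -0.89 for chemokines, 0.50 for glucose output and 0.14 for FoxO targets. It changed the sign of 42 of the 136 genes of the naming rule that were tried, among them G6pc1 (0.20), Dusp1 (0.02), Klf10 (0.16), Fosb (-0.11), Nr4a2 (-0.21), Rel (-1.03), Nab1 (-0.71) and Nab2 (-0.99). Of the 42, 6 had been past 1.5-fold: Trib1 (-0.06), Nr4a3 (-0.01), Nfkbie (-0.50), Irf1 (-0.37), Id3 (-0.41) and Maff (-0.43). Averaging probes (Nfkb2) and the refit below (Acacb) each changed 1 sign, and the other settings 0. In normexp as planned the dim spots had a median signal of 275 at 15 min, against 61.5 to 63.3 at the other times. Refitted without the 20 lowest spots, chosen after seeing the data, the 15 min median was 61.8, with 25 and 0 genes at 2-fold, 61 and 13 at 1.5-fold, and medians of 0.52 for EGR factors, 0.34 for AP-1, 1.0 for NR4A, 0.37 for other immediate early genes, 0.16 for NF-kB and 0.05 for chemokines. In 8 settings that keep all genes, 19 genes were 2-fold higher in each, among them Atf3, Cxcl1, Egr2, Jun, Nr4a1, Dusp5, Mt1, Klf6, Rnd1, Ccn1 and Plk3, and 0 were 2-fold lower.

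With 1 array per time, no difference here has an error that covers culture, labelling and hybridisation. Software errors and spot SDs cover reading only. Signal over background limits the dim genes, where most 2-fold lower calls lie. Slide position cannot be told apart from time.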
